A study of Mus musculus with 2 samples.

Results

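Described here are 10 genes of the TNF superfamily network in unstimulated mouse macrophages. They are the ligand genes Tnf, Tnfsf9, Tnfsf12 and Tnfsf13b, the receptor genes Tnfrsf1a, Tnfrsf1b, Tnfrsf21 and Tnfrsf14, and the adaptor genes Traf1 and Traf2. The 10 genes were taken by symbol from the 22060 genes of the deposited count table, and each had 1 row. RNA came from bone marrow-derived macrophages of 8-week-old C57BL/6 mice. Marrow was cultured for 7 days in M-CSF, which turns its progenitors into macrophages, and neither library was treated (time 0 h). The WT library carried wild-type STAT2, and the T403A library carried STAT2 with alanine in place of the threonine at residue 403. STAT2 forms part of the complex that turns on genes in answer to type I interferon. The sources used here do not give the number of animals behind each library or whether the substitution was on 1 or both alleles.

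TNF superfamily ligands are membrane proteins that act as trimers, and some, TNF among them, are also cut from the cell surface into a soluble form. Their receptors fall into those with a death domain in the cytoplasmic tail, which recruit adaptors such as TRADD, and those that bind TRAF proteins directly. Both routes can activate NF-kB. Macrophages are a major source of TNF and also carry both of its receptors.

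The WT library held 16033032 counts and the T403A library 18658381. Levels are in CPM (the standard count unit scaled to library size, here with TMM factors) or in CPM per kilobase of the deposited gene length where genes are compared with each other. With 1 library in each group, the differences have no replicate check and no p-value is given. Ratios between the libraries carry an exact 95% interval that covers counting error only. The rule for calling a gene higher or lower was a ratio of at least 1.5-fold with an interval that excluded 1. Of the 11199 measured genes (summed count of at least 20), 13.3% were higher and 11.1% lower in T403A by this rule. The split was 1490 higher and 1238 lower. It became 2290 and 890 with scaling by library total, which shifted the median of the log2 ratios over all genes by 0.20.

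All 10 genes passed the count filter. Of these, 2 were lower in T403A (Tnfrsf1b and Traf1), 1 was higher (Tnfsf12) and 7 met neither condition. Their median log2 ratio was -0.29, against 0.00 over all measured genes. A count of 2 lower and 1 higher among 10 genes is near the shares of 11.1% and 13.3% over all genes. By a 2-fold rule 1 gene was lower (Traf1) and none higher, where 6.14% of all measured genes were lower and 7.15% higher. In bulk RNA, fewer cells of a type and less RNA per cell cannot be told apart.

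The RefSeq promoter table (GRCm38.p6) held 9 windows for 8 of the 10 genes, each from 250 bases before to 50 bases after a transcription start. Tnfsf9 and Tnfsf12 had no window and were not searched. Matches to the interferon-stimulated response element (ISRE, searched on both strands as GAAA, then 2 bases of any kind, then GAAA) were found in 3 of these 9 windows, and 3.44% of all 32851 windows held one. They are shown because STAT2 complexes bind this element. The 3 matches belong to Tnfrsf1b, Tnfrsf14 and the second of the Tnfsf13b starts. Capitals mark the match, and each stretch reads 5′ to 3′ on the strand of the gene.
Tnfrsf1b, chr4:145246861-145246890, minus strand: ggcctgagggTTTCGCTTTCagtcaccagc
Tnfrsf14, chr4:154928122-154928151, minus strand: ctattttttcTTTCATTTTCacttttcctt
Tnfsf13b, chr8:10006607-10006636, plus strand: tacaaaaactGAAAGTGAAAtgcggaaggc

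Of the genes with these matches, 1 passed the rule, which 24.4% of all measured genes passed in either direction. Tnfrsf1b was 1.90-fold lower in T403A, and Tnfrsf14, at 1.11-fold lower (1.04-fold higher with scaling by library total), met neither condition. Tnfsf13b had a ratio of 1.52 with an interval that included 1. The match in Tnfrsf1b ended at the last base before the start, the one in Tnfrsf14 began 64 bases before it and the one in Tnfsf13b 16 bases before it. The Tnfrsf14 start used here lies 486 bases inside the annotated gene, and the Tnfsf13b start 166 bases inside it. A match of letters is a description and does not show that a factor binds there.

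The 2 genes that were lower have unlike promoters. The 250 bases before each start are printed with matches to ISRE, to the GAS element bound by STAT dimers (searched as TTCNNNGAA) and to the core of the site of the macrophage factor PU.1 (GAGGAA) in capitals.
Tnfrsf1b, chr4:145246871-145247120, minus strand: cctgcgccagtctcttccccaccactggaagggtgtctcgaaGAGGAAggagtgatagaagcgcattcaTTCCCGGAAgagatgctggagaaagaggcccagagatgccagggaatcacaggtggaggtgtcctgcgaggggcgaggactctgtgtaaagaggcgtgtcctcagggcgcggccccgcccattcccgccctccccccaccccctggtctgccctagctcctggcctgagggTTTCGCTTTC
Traf1, chr2:34961773-34962022, minus strand: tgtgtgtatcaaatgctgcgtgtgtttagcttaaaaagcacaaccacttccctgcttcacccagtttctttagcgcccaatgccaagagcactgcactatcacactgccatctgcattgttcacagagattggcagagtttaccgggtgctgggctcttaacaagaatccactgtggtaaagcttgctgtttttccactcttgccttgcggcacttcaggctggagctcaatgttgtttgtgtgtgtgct

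The Tnfrsf1b stretch held 1 match of each of these 3 motifs and the Traf1 stretch held none. Of all windows, 8.30% held a GAS match and 28.3% a PU.1 match. Tnfrsf1a held the only other GAS match among the 9 windows. Its start used here lies 361 bases inside the annotated gene, and so the match also lies inside it. PU.1 matches were also found for Tnf, Tnfrsf21 and Traf2. Both Tnfsf13b windows held an AP-1 match (TGANTCA, 7.81% of all windows). The Tnfsf13b windows overlap and share this site, which begins 39 bases after the first start and 127 bases before the second. Among the genes with a window, Tnf alone had a TATA box match (TATAAA, 13.6% of all windows), 29 bases before its start. No window of these genes held the kappaB motif (8.46% of all windows) or the CRE motif (TGACGNCA, 3.21%). Matches of different motifs did not overlap in these windows.

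Among the ligands, Tnf was by far the most abundant. Tnf (ENSMUSG00000024401, chromosome 17, 35199381 to 35202007 on the minus strand, GRCm38) encodes the founding inflammatory cytokine of the superfamily. It had 1819 counts in WT and 1757 in T403A, or 122 and 87.8 CPM. The T403A level was 1.38-fold lower (interval 1.30 to 1.48), which stayed within 1.5-fold. Per kilobase, Tnf was 21.1 times as abundant as Tnfsf9 in WT and 14.6 times in T403A. No exon of Tnf overlaps another annotated gene.

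The other ligands rested on far fewer counts. Tnfsf9 (ENSMUSG00000035678, chromosome 17, 57105325 to 57107757), which encodes the costimulatory ligand of CD137, had 68 counts in WT and 95 in T403A. Its level was 4.55 CPM in WT against 4.75 CPM in T403A, a ratio of 1.04 (0.757 to 1.45), so a difference was not detectable at this depth. A non-coding gene overlaps 192 exonic bases of Tnfsf9 on the opposite strand. The receptor of this ligand, Tnfrsf9, had 3 counts in each library.

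Tnfsf12 was the 1 gene of the 10 that was higher in T403A. It encodes TWEAK (ENSMUSG00000097328, chromosome 11, 69686250 to 69695849), a ligand whose receptor Tnfrsf12a (Fn14) acts in tissue repair. Tnfsf12 had 79 counts in WT and 200 in T403A, or 5.28 and 9.999 CPM, which is 1.89-fold higher (1.45 to 2.49). Its exons share 731 bases on the same strand with the readthrough gene Tnfsfm13, which itself had 4 and 9 counts, so reads in the shared part could be split between them. Tnfrsf12a, on 62 counts in WT and 59 in T403A, did not pass the rule. It was at 4.15 CPM in WT against 2.95 CPM in T403A, 1.41-fold lower with an interval (0.968 to 2.04) that included 1. Per kilobase, Tnfsf12 stood at 1.62 times Tnfrsf12a in WT and 4.32 times in T403A, with no interval computed for these values.

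Tnfsf13b, which encodes the B cell survival factor BAFF, was the least abundant of the 10 genes. It lies on chromosome 8 (ENSMUSG00000031497, 10006467 to 10039072). It had 27 counts in WT and 55 in T403A, or 1.81 and 2.75 CPM, a ratio of 1.52 whose interval of 0.944 to 2.51 included 1. With scaling by library total the ratio was 1.75 (1.09 to 2.89), which passes the rule. Of the BAFF receptors, Tnfrsf13b (TACI) was at 35.6 CPM in WT against 33.4 CPM in T403A. Tnfrsf13c (the BAFF receptor) had 0 counts in both libraries and Tnfrsf17 had 0 and 3.

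**Figure D1:**
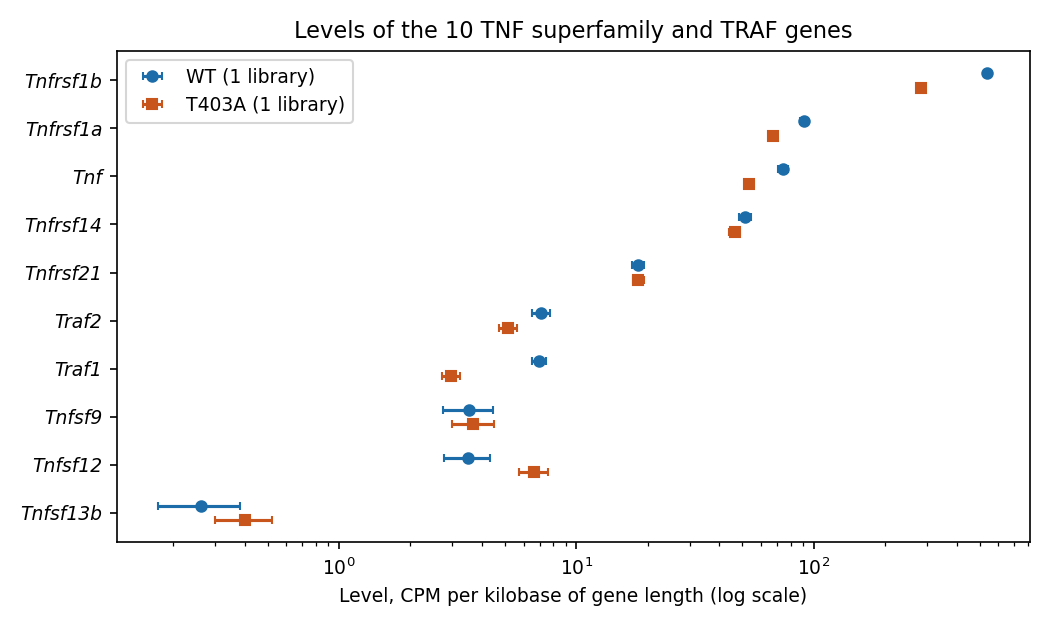
Level of each of the 10 genes in CPM per kilobase (log axis) in the WT library (circles) and the T403A library (squares), with exact 95% Poisson intervals for counting error. Tnfrsf1b is highest at 537 and 283, Tnfsf13b is lowest at 0.263 and 0.400, and the 5 most abundant genes keep their order in both libraries.

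Of the TNF receptor genes, Tnfrsf1b was lower in T403A by more than Tnfrsf1a. Tnfrsf1b encodes TNFR2, which binds TRAF2 directly and lacks a death domain (ENSMUSG00000028599, chromosome 4, 145213463 to 145246870). It had 30676 counts in WT and 21582 in T403A, or 2051 and 1079 CPM, which is 1.90-fold lower (1.87 to 1.93). Tnfrsf1a encodes TNFR1, the death domain receptor of TNF (ENSMUSG00000030341, chromosome 6, 125349362 to 125362484). It had 3517 counts in WT and 3474 in T403A, or 235 and 174 CPM, which is 1.35-fold lower (1.29 to 1.42). The counting intervals of these ratios did not overlap. Per kilobase, Tnfrsf1b was at 5.92 times Tnfrsf1a in WT and 4.22 times in T403A, a comparison that no library scaling changes.

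Tnfrsf1b was among the most abundant transcripts of these macrophages. Its level per kilobase lay at percentile 99.5 of the measured genes in WT and 99.2 in T403A. Tnfrsf1a lay at percentiles 95.9 and 95.4, and Tnf at 94.7 and 94.0. Both TNF receptor genes therefore stood in the top 10 percent of measured genes in both libraries.

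The other receptor genes differed little between the libraries. Tnfrsf14 encodes HVEM, which binds LIGHT and BTLA (ENSMUSG00000042333, chromosome 4, 154921933 to 154928563). It had 1106 counts in WT and 1337 in T403A, or 74.0 and 66.8 CPM, which is 1.11-fold lower (1.02 to 1.20) and 1.04-fold higher with scaling by library total. Tnfrsf21 encodes the death domain receptor DR6 (ENSMUSG00000023915, chromosome 17, 43016555 to 43089189). It had 1114 counts in WT and 1499 in T403A, or 74.5 and 74.9 CPM, a ratio of 1.01 (0.930 to 1.09) and of 1.16 (1.07 to 1.25) with scaling by library total. Both genes stayed within 1.5-fold.

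The TRAF adaptors differed from each other. Traf1 encodes an adaptor without the RING domain of the other TRAFs and is itself a target of NF-kB (ENSMUSG00000026875, chromosome 2, 34941750 to 34961772). It had 919 counts in WT and 523 in T403A, or 61.4 and 26.1 CPM, which is 2.35-fold lower (2.11 to 2.62). Traf2, which brings the ligases cIAP1 and cIAP2 to TNF receptors, lies on the same chromosome (ENSMUSG00000026942, 25517982 to 25546940). It had 542 counts in WT and 527 in T403A, or 36.2 and 26.3 CPM, which is 1.38-fold lower (1.22 to 1.55). Per kilobase, Traf2 was at 1.02 times Traf1 in WT, where their intervals overlapped, and at 1.74 times in T403A.

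**Figure D2:**
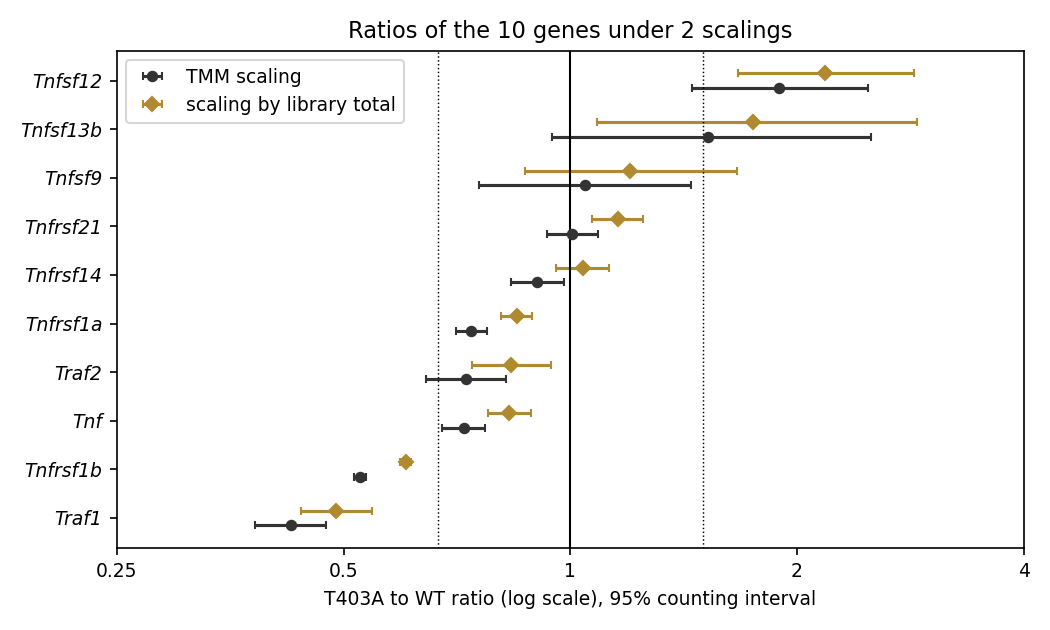
T403A to WT ratio of each of the 10 genes (log axis) with exact 95% counting intervals, under TMM scaling (circles) and scaling by library total (diamonds); dotted lines mark 1.5-fold in either direction. Traf1 and Tnfrsf1b lie below the lower line under both scalings, Tnfsf12 lies above the upper line under both, and Tnfrsf14 changes side of 1.

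In order of level per kilobase, both libraries began with Tnfrsf1b, Tnfrsf1a, Tnf, Tnfrsf14 and Tnfrsf21, and neighbours in this part of the order did not overlap in their counting intervals. In WT they were followed by Traf2 (7.10) and Traf1 (6.97), which overlapped, then by Tnfsf9 (3.52) and Tnfsf12 (3.49), which also overlapped. In T403A the order was Tnfsf12 (6.60), Traf2 (5.17), Tnfsf9 (3.68) and Traf1 (2.96), where the intervals of the last pair overlapped. Tnfsf13b was last in both. With 2 libraries, no measure of likeness between the patterns of genes is defined, and none is given.

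**Figure D3:**
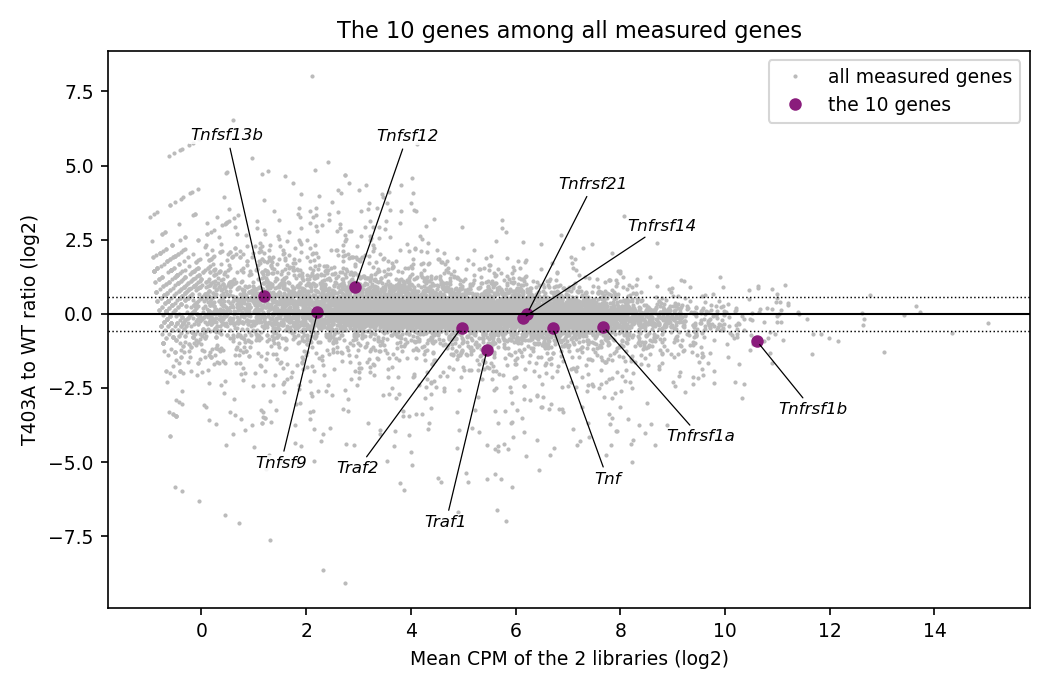
Log2 ratio of T403A to WT (prior count 0.5) against the log2 of the mean CPM of both libraries, for the 11199 measured genes (grey) and the 10 genes (purple); dotted lines mark 1.5-fold. Traf1 (-1.23) and Tnfrsf1b (-0.93) lie below the lower line, Tnfsf12 (0.92) lies clearly above the upper line, and Tnfsf13b (0.59) lies at it.

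The remaining ligands of the superfamily were mostly scarce. Of 14 listed genes 5 were measured, of which 3 were higher, 1 was lower and 1 did not meet the rule. Over all measured genes, 13.3% were higher and 11.1% lower. Tnfsf10, which encodes the death ligand TRAIL, had 311 counts in WT and 63 in T403A, or 20.8 and 3.15 CPM, which is 6.60-fold lower (5.02 to 8.80). Each of the 3 higher genes rested on fewer than 100 summed counts. Tnfsf8 (CD30 ligand) had 4 and 50 counts, 9.35-fold higher (3.43 to 35.6). Tnfsf13 (APRIL) had 8 and 31 counts, 2.90-fold higher (1.30 to 7.30), and its exons overlap those of Tnfsfm13 on the same strand and of an antisense gene. Tnfsf14 (LIGHT, a ligand of HVEM) had 26 and 61 counts, 1.75-fold higher (1.09 to 2.89). Tnfsf15 was at 4.08 and 3.55 CPM, and Ltb, Tnfsf4, Cd70 and Eda were below the count filter. Lta, Cd40lg, Fasl, Tnfsf11 and Tnfsf18 had 0 counts in both libraries, which allows up to 3 counts, or 0.201 CPM in WT against 0.150 CPM in T403A.

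Of 24 further receptors 14 were measured, of which 4 were lower and none higher, while 10 did not meet the rule. Over all measured genes, 11.1% were lower and 13.3% higher. The median log2 ratio of the 14 receptors was -0.05, and it was 0.15 with scaling by library total (0.20 over all measured genes). Cd40, the receptor through which T cells activate macrophages, was at 32.5 CPM in WT against 10.05 CPM in T403A, 3.23-fold lower (2.74 to 3.83). Tnfrsf11a (RANK), the receptor that drives osteoclast formation, was at 127 and 59.7 CPM, 2.12-fold lower (1.97 to 2.28). Tnfrsf8 (CD30) was at 4.81 and 2.50 CPM, 1.93-fold lower (1.32 to 2.82), and the decoy receptor gene Tnfrsf22 at 9.63 and 5.25 CPM, 1.83-fold lower (1.42 to 2.38). Reads of Tnfrsf22 and of its close relatives Tnfrsf23 (12.6 CPM in both libraries) and Tnfrsf26 (15.9 and 19.0 CPM) could be split between them.

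The receptors within 1.5-fold included the lymphotoxin receptor gene Ltbr at 105 and 81.3 CPM and the death receptor gene Fas at 34.8 and 48.0 CPM. Fas was 1.38-fold higher (1.24 to 1.54). Relt was at 4.35 and 4.80 CPM. Tnfrsf4, Cd27 and Tnfrsf10b had 27, 28 and 38 summed counts. Their ratios were 1.495, 1.87 and 1.62, the last 2 beyond 1.5-fold, and the intervals of all 3 included 1.

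None of the other 5 TRAF genes was higher or lower by the rule, which 24.4% of all measured genes passed. The median log2 ratio of these 5 genes was 0.21. Traf3, a brake on the non-canonical NF-kB route, was at 94.1 and 83.4 CPM. Traf6, which serves Toll-like and interleukin-1 receptors, was at 50.6 and 54.6 CPM, and Traf7 at 64.5 and 74.3 CPM. Exons of Traf7 overlap those of Rab26 on the same strand and Caskin1 on the other. Traf5 was at 4.68 and 6.10 CPM, and Traf4 had 5 and 15 counts. Traf1 was the only one of the 7 TRAF genes past the rule, under TMM scaling and with scaling by library total.

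The receptor-proximal signalling genes were mostly within 1.5-fold. Of 28 listed genes, all of them measured, 4 were lower and none higher, and the other 24 did not meet the rule. Over all measured genes, 11.1% were lower and 13.3% higher. The median log2 ratio of the 28 genes was -0.22, and it was -0.020 with scaling by library total (0.20 over all measured genes). Mlkl, which executes necroptosis, was at 49.5 CPM in WT against 14.2 CPM in T403A, 3.49-fold lower (3.04 to 4.02). Rnf31, the catalytic subunit of the linear ubiquitin ligase, was 1.86-fold lower (1.70 to 2.03), and its exons overlap those of Irf9 on the same strand by 123 bases. Tnfaip3, which encodes the feedback inhibitor A20, was at 173 and 100.2 CPM, 1.73-fold lower (1.63 to 1.83). Casp8, the initiator caspase of TNFR1, was 1.60-fold lower (1.497 to 1.72) and fell within 1.5-fold with scaling by library total. The most abundant genes of the list by count, Tab2 (270 and 242 CPM) and Cflar (286 and 209 CPM), met neither condition.

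Among 9 genes that cut ligands from the membrane or regulate that step, 8 were measured, of which 2 were lower and 1 was higher. The shares over all measured genes were 11.1% lower and 13.3% higher. Adam17, the protease that releases TNF, was at 825 CPM in WT against 664 CPM in T403A, 1.24-fold lower (1.21 to 1.27). The related protease gene Adam10 was at 469 and 241 CPM, 1.95-fold lower (1.88 to 2.02). Sppl2a, an intramembrane protease that cleaves the TNF stub left after shedding, was at 584 and 304 CPM, 1.92-fold lower (1.86 to 1.98). Rhbdf1 had 10 and 56 counts, 4.19-fold higher (2.12 to 9.21), while Rhbdf2, the form that predominates in macrophages and carries ADAM17 to the surface, was at 125 and 109 CPM.

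Many genes that TNF is known to induce were lower in T403A. Of 32 listed genes 30 were measured, of which 15 were lower and none was higher, against 11.1% and 13.3% of all measured genes. The median log2 ratio of the 30 genes was -0.53, and -0.33 with scaling by library total. Over all measured genes these medians were 0.00 and 0.20. Many of these genes also answer interferon or Toll-like receptors, and the list was chosen with earlier results of these data known, and whether TNF signalling differed was not tested. The lower genes with interval bounds farthest from 1 were Ccl5, Il1b, Mmp9 and Ccl7. The chemokine gene Ccl5 was 38.6-fold lower (31.2 to 48.3), the interleukin gene Il1b 21.9-fold (17.7 to 27.4) and the matrix protease gene Mmp9 11.0-fold (8.22 to 14.9). Ccl7, a monocyte chemokine gene, had 70 and 7 counts, 13.4-fold lower (6.16 to 34.5). Sod2, the mitochondrial superoxide dismutase gene, was at 1103 CPM in WT against 356 CPM in T403A, 3.10-fold lower (3.01 to 3.18). Tnfaip2, which had the largest count of the list in T403A, was at 821 and 989 CPM and within 1.5-fold.

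**Figure D4:**
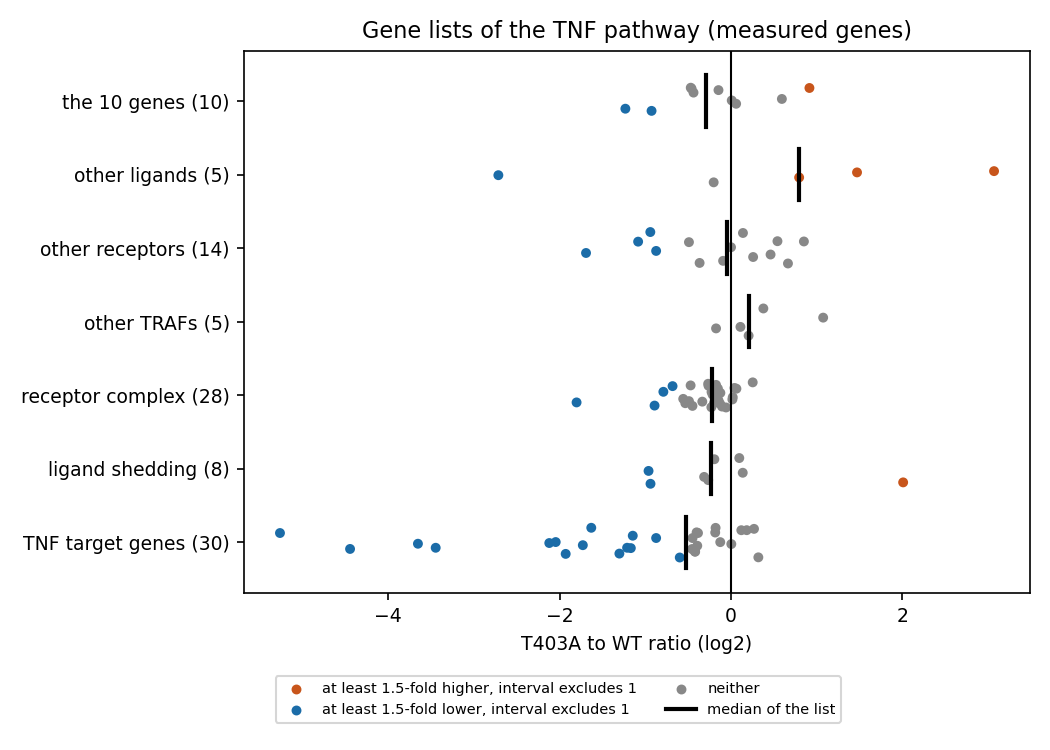
Log2 ratio of T403A to WT for each measured gene of the lists (number in brackets), coloured by the 1.5-fold rule; vertical bars are list medians, and vertical scatter only separates points. The 10 genes have a median of -0.29, the other receptors -0.05 and the TNF target genes -0.53.

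Partners of Tnfrsf21 and Tnfrsf14 were compared last. App, whose product is a reported ligand of DR6, was at 1074 CPM in WT against 797 CPM in T403A, 1.35-fold lower (1.32 to 1.38). Its relative Aplp2 was at 375 and 632 CPM, 1.69-fold higher (1.63 to 1.74). Btla, the inhibitory receptor that binds HVEM, had 0 counts in both libraries. Of the further genes named, exons of Tnfrsf23, Tnfrsf26, Tnfaip2, Il1b and App overlap an antisense gene, those of Adam17 the protein-coding gene Iah1 on the opposite strand, those of Cd27 a microRNA gene on the same strand, and those of Traf5 both a microRNA gene and an antisense gene.

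The macrophage label was checked against markers. All 9 macrophage markers were measured, with a summed level of 51011 CPM in WT against 39033 CPM in T403A. Of the 9, 5 were lower, among them Adgre1 (1.86-fold) and Itgam (2.05-fold), where 11.1% of all measured genes were lower. None of the 10 T and NK cell markers was measured: their summed level was 1.20 CPM in WT against 0.700 CPM in T403A, and Cd3d, Cd3e, Cd3g, Cd8a, Ncr1 and Gzma were at 0 counts. Of 7 B cell markers 1 was measured (0.735 and 1.35 CPM summed), with Pax5 and Vpreb1 at 0. Of 8 neutrophil markers 5 were measured (8.76 and 11.2 CPM summed), with Ly6g and Elane at 0. The dendritic cell list had 1 of 6 measured (2.14 and 1.15 CPM) and the mast cell and basophil list 0 of 4 (0 and 0.600 CPM). Of 7 stromal and endothelial markers 4 were measured, and the sum was 16.8 CPM in WT against 6.00 CPM in T403A. The part of these cells in the ratios of the scarce ligands Tnfsf8, Tnfsf13 and Tnfsf14 was not tested.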

How the data were processed

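RNA of 2 macrophage libraries was sequenced on an Illumina instrument. The authors deposited whole-number read counts per Ensembl gene with a gene length in bases, per the file headers. Per the submitters' processing notes, the build was GRCm38 and the tools included HTSeq 0.9.1, HISAT2, DESeq 1.30.0 and cutadapt 1.15, with no roles stated. The annotation, strand setting and RNA selection were not given in these sources, so reads of overlapping genes cannot be told apart. Columns were matched to samples by title, and both per-sample columns were used. Symbols were found for 21969 of 22060 genes. Positions and exon overlaps come from GENCODE M21 on the same build, whose exon unions equalled 96.9% of deposited lengths.

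Counts were scaled with TMM (edgeR 4.0.16, R 4.3.3) on genes whose counts summed to 20 or more. Ratios carry exact Clopper-Pearson intervals and levels exact Poisson intervals (scipy 1.17.1), both at 95% and for counting error only. Log2 ratios used a prior count of 0.5 per library. With 1 library per group no test was possible. The ratio calculation was tested on simulated Poisson counts with known library totals. That simulation held no variation between animals and left out the TMM step. Alternatives were library totals, DESeq2 1.42.0 size factors, other filters, a 2-fold rule and a prior count of 2. Promoter windows come from RefSeq.

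The 10 genes, the lists and the motifs were chosen with earlier results of these data known. Named are the 10 genes, every measured gene of the ligand, receptor and TRAF lists, and from each other list the 4 called genes with the largest interval bound nearest 1 and the 2 with the highest count. Other genes were named after their values were seen.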

Additional observations from a re-analysis of the deposited data

How the results depend on the processing

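For all 10 genes, DESeq2 size factors, TMM without a count filter and a prior count of 2 kept log2 ratios within their counting intervals. Scaling by library total shifted every log2 ratio by the same 0.20 and moved 7 of the 10 beyond their intervals. Which genes moved that far depends on the width of the interval, which is set by the counts. With library totals 2 genes were higher (Tnfsf12 and Tnfsf13b) and 2 lower, where 20.4% of all measured genes were higher and 7.95% lower, and the median log2 ratio was -0.091 against 0.20 over all genes. It was -0.44 over the 9 genes whose counts summed to 100 or more. By a 2-fold rule 0 of the 10 genes were higher and 1 was lower (Traf1), against 7.15% and 6.14% of all genes (801 and 688). By that rule 2 of 14 receptors, 1 of 28 receptor complex genes and 0 of 8 shedding genes were lower, and 2 of 5 other ligands higher. Aplp2 was not among the higher genes by that rule, so 0 of the 4 partner genes were. Among genes whose counts summed to 100 or more, 0 of 2 other ligands and 0 of 7 shedding genes were higher. Of all genes past that filter, 11.5% were higher and 10.8% lower. The median of those 2 ligands was -1.46. With library totals 1 of 14 receptors (Fas) was higher, and the medians became 0.15 for receptors, 0.19 for partners, 0.41 for other TRAFs, 1.00 for other ligands, -0.029 for shedding genes and -0.33 for TNF target genes. Medians without a filter take genes at 0 counts at -0.42, a value set by the prior count and the scaling. No paired analysis was possible because each group is 1 library, and for the same reason no replicate could be left out. Genes of few counts are limited most by depth: for Tnfsf13b, on 27 and 55 counts, the interval ran from 0.944 to 2.51.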

Other observations

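Genes beside the 10 were read as a description of position. Within 50 kb of them lie 31 measured genes, of which 5 were higher, 5 were lower and 21 met neither condition. These counts are near the shares of 13.3% higher and 11.1% lower over all measured genes. Tnf sits in the class III region of the major histocompatibility complex, and 3 of its 6 measured neighbours were lower in T403A. Aif1, which encodes the macrophage protein IBA1, was at 103 CPM in WT against 23.0 CPM in T403A, 4.48-fold lower. Lst1, a leukocyte-specific transcript, was at 43.4 and 16.3 CPM, 2.66-fold lower, and Atp6v1g2 at 9.49 and 4.80 CPM, 1.98-fold lower. Tnf itself, at 1.38-fold lower, lies between Lst1 and Atp6v1g2. Ddx39b beyond them was 1.30-fold lower, Nfkbil1 was at 4.88 and 4.75 CPM and Prrc2a at 424 and 415 CPM. The adjacent lymphotoxin genes were nearly silent: Lta had 0 counts in both libraries and Ltb had 7 and 4.

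Some other neighbours went with the gene they flank and some did not. Phf19, a Polycomb-associated gene near Traf1, was at 1.47 and 7.55 CPM, 5.13-fold higher, while Traf1 was lower. Tnfrsf8, 20267 bases from Tnfrsf1b, was lower as that gene was, and Vps13d on the other side was within 1.5-fold at 146 and 149.9 CPM. Tnfsf13, 466 bases from Tnfsf12, was higher as Tnfsf12 was, with the readthrough gene Tnfsfm13 overlapping both. Beside Tnfrsf1a, Plekhg6 was 1.54-fold lower and Scnn1a, on 6 and 38 counts, 4.74-fold higher. Slc25a23 near Tnfsf9 was 2.52-fold higher and C8g near Traf2 1.62-fold higher.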
